A study of Mus musculus with 18 samples.

Results

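Fatty acid oxidation was examined through 36 genes of the 32675 genes measured, chosen by name: the receptor Ppara, its coactivator Ppargc1a, the genes that bring long fatty acids into the cell and the mitochondrion, the enzymes that shorten them in mitochondria and peroxisomes, and a few further genes known to be driven by PPAR-alpha. The measurements came from bulk RNA sequencing of right kidneys of 18 wild-type male C57BL/6 mice, with 6 animals to each of 3 groups. Mice of all groups were labelled as 6 weeks old. Ctrl mice were handled but never defeated. The PBS and FLX groups went through chronic social defeat stress (CSDS), a daily bout of 10 min with an aggressive CD-1 mouse, kept up for 14 days. Both defeated groups were injected into the abdomen once a day, the PBS group with phosphate-buffered saline and the FLX group with fluoxetine, a serotonin reuptake inhibitor, at 10 mg per kg. No injection of the Ctrl group is described, so that defeat and injection cannot be told apart in PBS versus Ctrl. One PBS mouse was deleted by the study for its inflammatory genes without being named. It was taken here to be PBS replicate 6, which had 22.1 FPKM of S100a8 against at most 7.65 in the other 5 PBS mice. Comparisons were made on the other 17 mice. Values over all 18 are given where the mouse changes a call or turns a sign of one of the 36 genes.

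Fatty acids are burned by beta-oxidation, a cycle that cuts a pair of carbons from an acyl-CoA chain at each turn and passes electrons to the respiratory chain. Very long and branched chains are first shortened in peroxisomes, and long chains reach the mitochondrion as carnitine esters. The nuclear receptor PPAR-alpha binds fatty acids and, paired with RXR, switches on most genes of the pathway during fasting. In the kidney it is the proximal tubule, rich in mitochondria, that depends most on this fuel.

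Levels of the 36 genes spanned a wide range. In the Ctrl group Slc27a2, a fatty acid transporter and very-long-chain acyl-CoA synthetase of the proximal tubule, was highest with 738 ± 43.7 FPKM (SD, n = 6). It was followed by Etfb, a subunit of the electron transfer flavoprotein, with 396 ± 82.2 FPKM (SD, n = 6), and by Ehhadh, the peroxisomal bifunctional enzyme, with 229 ± 21.1 FPKM (SD, n = 6). Phyh, which starts the breakdown of branched phytanic acid, had 223 ± 14 FPKM (SD, n = 6). Both regulators stood at the low end, with 4.96 ± 1.28 FPKM (SD, n = 6) of Ppara and 6.05 ± 1.3 FPKM (SD, n = 6) of Ppargc1a, next to 5.40 ± 1.28 FPKM (SD, n = 6) of the mitochondrial thioesterase Acot2. The transport and activation genes Fabp3, Cd36 and Acsl1 had 84.8, 82.8 and 15.5 FPKM, and the carnitine shuttle genes Cpt2, Cpt1a, Crat and Slc25a20 57.2, 40.6, 22.5 and 11. Mitochondrial cycle enzymes ran from 198 (Acadm) over 157 (Acaa2) and 143 (Acadl) down to 23.5 (Hadhb) and 19.8 (Hadha). In peroxisomes Acaa1b had 141, Acaa1a 30.5, Pex11a 15.7 and Hacl1 10. The auxiliary enzymes Decr1, Eci1, Eci2 and Decr2 had 55.6, 48.5, 20.8 and 15.4, the electron acceptors Etfa and Etfdh 166 and 21.6, and the targets Vnn1, Acot1 and Angptl4 36.3, 19.4 and 15.1 FPKM. FPKM is read density per length of gene, so these levels may be set side by side between genes. All 36 genes passed the filter on low counts, as did 20251 genes in all. The 12 markers of the proximal tubule, Slc27a2 among them, summed to 2456 to 2844 FPKM in the Ctrl group, 2359.8 to 2745 in the 5 PBS mice and 2432 to 2846 in the FLX group, and none of the 12 was called in any comparison. In whole kidney a lower share of a cell type and less RNA per cell cannot be told apart.

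Total counts were between 72149987 and 79061296 in 14 mice and between 48928823 and 52073640 in FLX replicates 3 to 6. Brown fat markers differed widely between mice. The 7 brown fat markers, all of them measured, summed to 24.5 to 114 FPKM in the Ctrl group, 41.1 to 825 in the 5 PBS mice and 31.8 to 427 in the FLX group. The highest sums belonged to PBS replicate 5 (825 FPKM, with 214 FPKM of Ucp1, the uncoupling protein that defines brown fat) and FLX replicate 5 (427 FPKM). Brown fat burns fatty acids by the same enzymes, so the values that PBS replicate 5 moves most are given without it as well. Of the marker lists of other cells, called markers in PBS versus Ctrl were 3 of 6 tested for neutrophils (Ngp, S100a8 and S100a9, higher), 1 of 7 for brown fat (Elovl3, higher) and 1 of 6 for the loop of Henle and distal tubule (Calb1, higher). In FLX versus PBS 1 of the 6 neutrophil markers was lower. Markers of white fat (7 tested), injured tubules (3), podocytes (3), macrophages (5), skeletal muscle (5) and adrenal cortex (2) had no call in any comparison, and the part of these cells in the members' values was not tested. White fat markers still differed widely between mice. Their sums were 1187 FPKM in PBS replicate 5 and 1366.5 in FLX replicate 5, the mice highest in brown fat markers, against at most 268 in any other mouse.

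Promoter sequences were read for the members, since PPAR-alpha with RXR binds a direct repeat of AGGTCA spaced by 1 base. RefSeq promoters of build GRCm38.p6 (300 bases around a gene's start) were at hand for 31 of the 36 genes. The exact repeat AGGTCANAGGTCA, on either strand, was in none of them and in 13 of 32851 promoters in all. With up to 2 mismatches in the 12 fixed bases it was in 4 of the 31 members, against 3.86% of all promoters. A single AGGTCA was in 7 members (Acadm, Acadvl, Cd36, Cpt1a, Echs1, Phyh and Slc27a2), against 16.3% of all promoters. It was counted also inside a match of the repeat, as in Echs1. These counts describe letters in a short window and say nothing of binding. The 4 windows with a match are shown to let the repeat be seen, with the match in capitals, 5′ to 3′ on the strand of the gene. Cd36 takes up fatty acids at the cell surface, Echs1 hydrates the shortened chain, Etfa carries its electrons and Slc25a20 exchanges acylcarnitine across the inner membrane. The window of Cd36 surrounds an alternative start well inside the gene as deposited. The windows lie at chr5:17835939-17835967 and chr7:140116484-140116512 and at chr9:55512300-55512328 on the minus strand, and at chr9:108662134-108662162 on the plus strand.
Cd36: tggttctcTGGCCTCTGACTTacttggat
Echs1: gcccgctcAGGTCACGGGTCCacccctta
Etfa: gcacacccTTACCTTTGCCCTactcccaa
Slc25a20: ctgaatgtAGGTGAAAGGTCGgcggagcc

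Hadha and Hadhb, which encode both subunits of the mitochondrial trifunctional protein, lie head to head on the chromosome. Hadha (ENSMUSG00000025745, chromosome 5, 30118304 to 30155162, minus strand) and Hadhb (ENSMUSG00000059447, chromosome 5, 30155248 to 30184593, plus strand) have their starts 85 bases apart, a gap at chr5:30155163-30155247. The stretch is shown on the plus strand, 5′ to 3′, because this pair had the highest fold changes of the mitochondrial enzymes. Capitals mark GGGCGG, the GC box, found 2 times here and on either strand in 35.7% of RefSeq promoters of 300 bases.
Hadha-Hadhb: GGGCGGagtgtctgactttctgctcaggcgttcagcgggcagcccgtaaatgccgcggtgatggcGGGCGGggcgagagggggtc

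Kidneys of stressed, saline-treated mice were first set against those of undefeated mice, and no member reached a call. In PBS versus Ctrl, 0 of 36 members passed an adjusted p under 0.05 in edgeR's quasi-likelihood test, where 3.81% of all genes tested did. DESeq2 called 2 of them, Hacl1 and Hadha, and over all 20223 genes it tested it called 748 higher and 608 lower. At an unadjusted p under 0.05 there were 7 of 36 members, or 19.4%, against 17.9% of all genes (9.18% higher and 8.76% lower). Higher in the PBS group by that looser count were Hacl1, Hadha and Hadhb, and lower were Cd36, Ehhadh, Acads and Acadm. At the study's own rule, an unadjusted p under 0.05 with a log2 fold change beyond 1 in either direction, there were again 0 of 36 members, against 3.28% of all genes. Not one member had groups without overlap, while 3.52% of all genes did. The median log2 fold change was -0.01 over the members and -0.01 over all genes, with 17 members above 0 and 19 below.

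The intervals say how large a change could have been missed. For 35 of the 36 members the 95% interval of the log2 fold change lay inside -1 to 1, against 65.8% of all genes. Hadhb was the exception, with 0.16 to 1.20. The interval lay inside -0.5 to 0.5 for 20 members, against 38.8% of all genes. Fold changes themselves ran from -0.36 for Cd36 to 0.68 for Hadhb, as the plot of all fold changes shows.

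**Figure D1:**
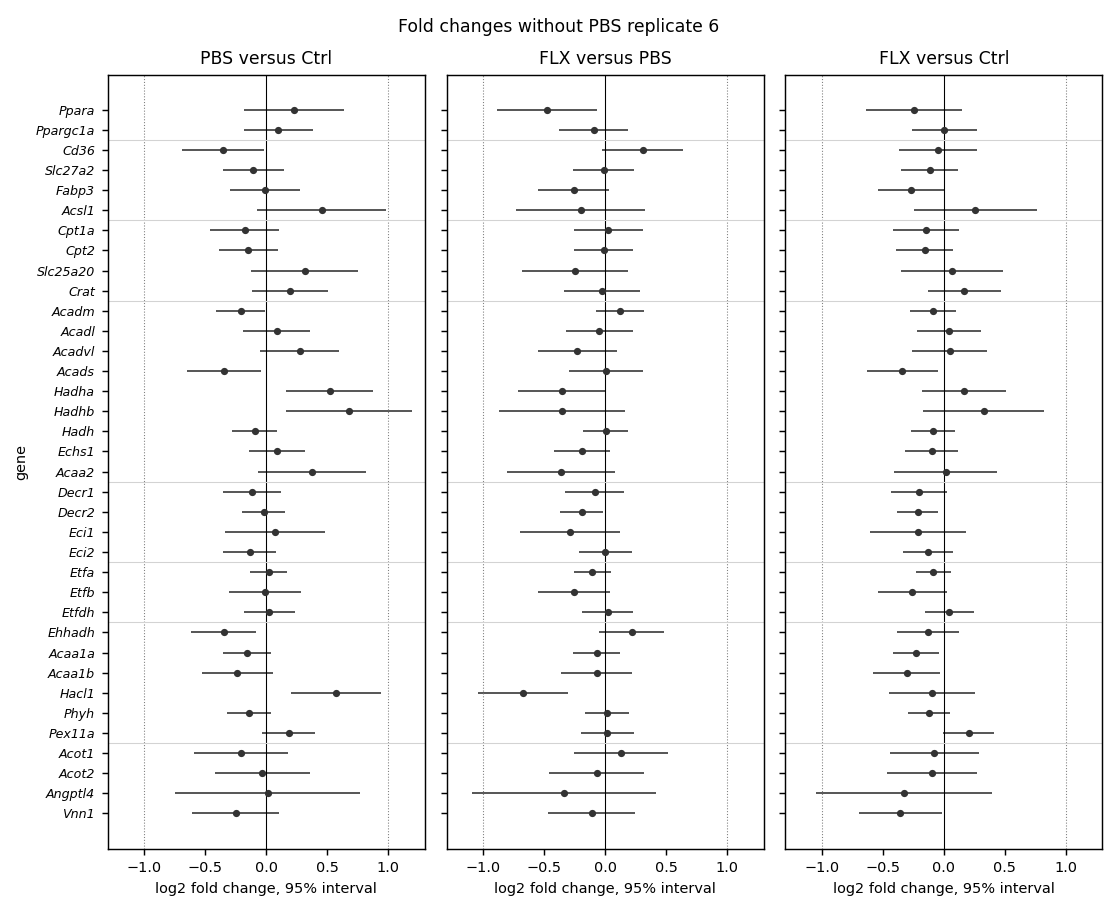
Log2 fold changes (x axis, points) with 95% intervals (bars) of the 36 genes (y axis, grouped by role) in the 3 comparisons, over 17 mice. Every point lies between -1 and 1, and Hadhb, Hacl1 and Angptl4 have the only bars that cross a dotted line at -1 or 1.

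Among the mitochondrial enzymes the trifunctional protein stood out. Its alpha subunit gene Hadha was at 26.1, 22, 23.4, 21.3 and 49.8 FPKM in PBS replicates 1 to 5. The lowest, median and highest values were 18.1, 19.6 and 22 FPKM in the Ctrl group and 20.6, 22.1 and 32.1 FPKM in the FLX group. One PBS mouse, replicate 5, was far above the other mice, and the other 4 lay at the upper end of the Ctrl range or just above it. The means were 19.8 ± 1.32 FPKM (SD, n = 6) in Ctrl and 28.5 ± 12 FPKM (SD, n = 5) in PBS, a log2 fold change of 0.52 ± 0.17 (SE, adjusted p = 0.104). Hadhb, the beta subunit gene with the final thiolase step, was at 31.1, 24.2, 30.6, 26.5 and 77.3 FPKM in the PBS mice, against 20.7, 23.4 and 26.2 FPKM (lowest, median and highest) in Ctrl and 24.2, 27.2 and 51.5 FPKM in FLX. Again replicate 5 was the highest by far and the groups overlapped. Hadhb had 23.5 ± 2.06 FPKM (SD, n = 6) in Ctrl and 37.9 ± 22.2 FPKM (SD, n = 5) in PBS, and its log2 fold change was 0.68 ± 0.25 (SE, adjusted p = 0.142). Without PBS replicate 5 the values of the pair came down to 0.24 (adjusted p = 0.257) and 0.27 (adjusted p = 0.454). With the mean log2(FPKM + 0.1) of the brown fat markers as a covariate they were 0.17 (adjusted p = 0.611) and 0.11 (adjusted p = 0.816). DESeq2 called Hadha alone of the pair, at 0.52 (adjusted p = 0.0410).

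The acyl-CoA dehydrogenases, which open each turn of the cycle, had fold changes of both signs. Acads, for short chains, was at 93.6, 103, 102, 76.5 and 109.8 FPKM in the PBS mice and at 80.7, 133 and 147 FPKM (lowest, median and highest) in Ctrl and 88.1, 103 and 116 FPKM in FLX. Ctrl replicate 3 held the lowest Ctrl value, below 4 of the 5 PBS mice. Acads had 123 ± 24.4 FPKM (SD, n = 6) in Ctrl and 96.9 ± 12.8 FPKM (SD, n = 5) in PBS, with a log2 fold change of -0.35 ± 0.15 (SE, adjusted p = 0.213), and without Ctrl replicate 3 this became -0.45 (adjusted p = 0.0224), which is a call. Without that mouse 916 genes were higher and 746 lower over all genes, against 433 and 339 with it. Acadm, for medium chains, had 198 ± 15.2 FPKM (SD, n = 6) and 170.4 ± 16.2 FPKM (SD, n = 5) and a log2 fold change of -0.21 ± 0.10 (SE, adjusted p = 0.250). Acadl and Acadvl, for long and very long chains, had log2 fold changes of 0.09 and 0.27 (adjusted p = 0.794 and 0.376). The remaining mitochondrial steps are the hydratase Echs1 (30.8 FPKM in Ctrl and 32.8 in PBS), the dehydrogenase Hadh (86.4 and 80.8) and the thiolase Acaa2 (157 and 205), with adjusted p of 0.734, 0.639 and 0.375. Without PBS replicate 5 the log2 fold change of Acadl was -0.13, that of Acadvl 0.04 and that of Acaa2 0.20 (with it, 0.38).

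Hacl1, the peroxisomal lyase that removes 1 carbon from branched chains in alpha-oxidation, came closest to a call. It was at 17.2, 8.33, 13.8, 14.3 and 21.2 FPKM in PBS replicates 1 to 5, at 7.41, 9.89 and 13.5 FPKM (lowest, median and highest) in the Ctrl group and at 7.75, 10.4 and 11.3 FPKM in the FLX group. All PBS mice but replicate 2 were above every Ctrl and FLX mouse. The means were 10 ± 1.96 FPKM (SD, n = 6), 14.9 ± 4.74 FPKM (SD, n = 5) and 10 ± 1.29 FPKM (SD, n = 6) in Ctrl, PBS and FLX. Its log2 fold change was 0.57 ± 0.18 (SE, adjusted p = 0.0787) in PBS versus Ctrl. Over all 6 PBS mice, with 27.4 FPKM in replicate 6, it was 0.75 (adjusted p = 0.0373), a call. The call was also made by DESeq2 (adjusted p = 0.0255), without PBS replicate 2 (0.73, adjusted p = 0.00937) and without Ctrl replicate 6 (0.67, adjusted p = 0.0460), but not without PBS replicate 5 (0.44, adjusted p = 0.187). No other fit that left out 1 mouse called Hacl1, and without Ctrl replicate 3 it had 0.49 (adjusted p = 0.0824). With the brown fat markers as a covariate the value was 0.39 (adjusted p = 0.373). Hacl1 (ENSMUSG00000021884, chromosome 14, 31598730 to 31641257, minus strand) overlaps Btd, the biotinidase gene on the other strand, by 230 bases. Mean Btd was 31.1 FPKM in Ctrl, 35.9 in PBS and 30.9 in FLX, with SDs of 2.40, 2.17 and 1.04. The libraries kept the strand, but whether counting used it is given by no source used here, and the part of Btd in the values of Hacl1 was not tested.

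Ehhadh, which joins the hydratase and dehydrogenase steps of the peroxisomal cycle and is a textbook PPAR-alpha target, was at 159, 174, 160.3, 172 and 233 FPKM in PBS replicates 1 to 5, against 189.7, 239 and 245 FPKM (lowest, median and highest) in Ctrl and 179.6, 214 and 289 FPKM in FLX. PBS replicates 1 to 4 lay below all 12 Ctrl and FLX mice, and replicate 5 lay within the Ctrl range. With 229 ± 21.1 FPKM (SD, n = 6) in Ctrl and 179.7 ± 30.3 FPKM (SD, n = 5) in PBS the log2 fold change was -0.35 ± 0.13 (SE, adjusted p = 0.145). Leaving out PBS replicate 5 gave -0.44 (adjusted p = 0.0637), and leaving out FLX replicate 5 as well, a choice made after seeing the data, gave -0.44 (adjusted p = 0.0448), a call. PBS replicate 6 held 586 FPKM, which brought the PBS versus Ctrl value to 0.09 (adjusted p = 0.887), so that its inclusion turned the sign. The peroxisomal thiolase genes Acaa1a and Acaa1b had log2 fold changes of -0.16 ± 0.09 (SE, adjusted p = 0.400) and -0.24 ± 0.14 (SE, adjusted p = 0.398). They are near-identical copies between which reads may have been split. Phyh and Pex11a, a peroxisome division gene, had -0.14 and 0.18 (adjusted p = 0.427 and 0.384).

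At the entry to the pathway Cd36, the cell-surface fatty acid translocase, was at 63.4, 56.8, 55.8, 56.0 and 90.4 FPKM in PBS replicates 1 to 5 and at 63.5 to 103 FPKM in Ctrl. Its means were 82.8 ± 13 FPKM (SD, n = 6) in Ctrl and 64.5 ± 14.8 FPKM (SD, n = 5) in PBS, and the log2 fold change was -0.36 ± 0.16 (SE, adjusted p = 0.245). Slc27a2 (-0.11), the fatty acid carrier Fabp3 (-0.01) and the acyl-CoA synthetase Acsl1 (0.45) had adjusted p of 0.707, 0.983 and 0.369. Acsl1 rested on a single mouse, with 46.5 FPKM in PBS replicate 5 and 11.5 to 18.3 in the other 4, and leaving that mouse out gave -0.02. Along the carnitine shuttle Cpt1a, the rate-limiting outer-membrane enzyme, had 40.6 ± 9.79 FPKM (SD, n = 6) in Ctrl and 35.7 ± 5.96 FPKM (SD, n = 5) in PBS (log2 fold change -0.18, adjusted p = 0.544). Cpt2, its partner on the inner membrane, was at 50.6, 40.7, 45.3, 45.6 and 76.2 FPKM in the PBS mice and 53.5 to 60.4 FPKM in Ctrl, so that 4 PBS mice were below every Ctrl mouse and replicate 5 was above all of them. Its log2 fold change of -0.15 (adjusted p = 0.553) became -0.31 (adjusted p = 0.0412) without PBS replicate 5, a call. The carrier Slc25a20 and the acetyltransferase Crat had 0.32 and 0.19 (adjusted p = 0.465 and 0.547), and -0.06 and -0.03 without PBS replicate 5.

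Auxiliary steps gave small fold changes. Decr1, Decr2, Eci1 and Eci2, the reductases and isomerases that let unsaturated chains through, had log2 fold changes between -0.13 and 0.07. The electron acceptors Etfa, Etfb and Etfdh lay between -0.01 and 0.03. The thioesterase Acot1 (-0.21) and its near-identical copy Acot2 (-0.03), the lipase inhibitor Angptl4 (0.01) and the pantetheinase Vnn1 (-0.25) had adjusted p of 0.611, 0.954, 0.992 and 0.482. Several of these signs turned with all 6 PBS mice. Their log2 fold changes were then 0.23 for Acot1, 0.34 for Acot2, 0.19 for Vnn1, 0.06 for Decr1, 0.11 for Decr2, 0.03 for Eci2 and -0.06 for Etfa, and that of Angptl4 was 0.52, all with adjusted p of 0.507 or more. Angptl4 varied most among mice, from 5.05 to 27.5 FPKM over the 5 PBS mice and 8.84 to 22.7 FPKM over the Ctrl mice. Of the regulators, Ppara was at 4.02, 3.29, 6.61, 5.70 and 9.36 FPKM in PBS replicates 1 to 5, with 4.08, 4.42 and 7.44 FPKM (lowest, median and highest) in Ctrl and 3.96, 4.27 and 5.04 FPKM in FLX, and the groups overlapped. The means were 4.96 ± 1.28 FPKM (SD, n = 6), 5.79 ± 2.39 FPKM (SD, n = 5) and 4.42 ± 0.454 FPKM (SD, n = 6), and the PBS versus Ctrl log2 fold change was 0.23 ± 0.20 (SE, adjusted p = 0.596). Ppargc1a was at 5.16, 6.04, 8.23, 6.48 and 6.26 FPKM in the PBS mice, 4.98, 5.58 and 8.39 FPKM in Ctrl and 4.91, 6.51 and 7.93 FPKM in FLX, ranges that covered one another. It had 6.05 ± 1.3 FPKM (SD, n = 6), 6.43 ± 1.12 FPKM (SD, n = 5) and 6.43 ± 1.13 FPKM (SD, n = 6), and its log2 fold change was 0.10 ± 0.13 (SE, adjusted p = 0.769).

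**Figure D2:**
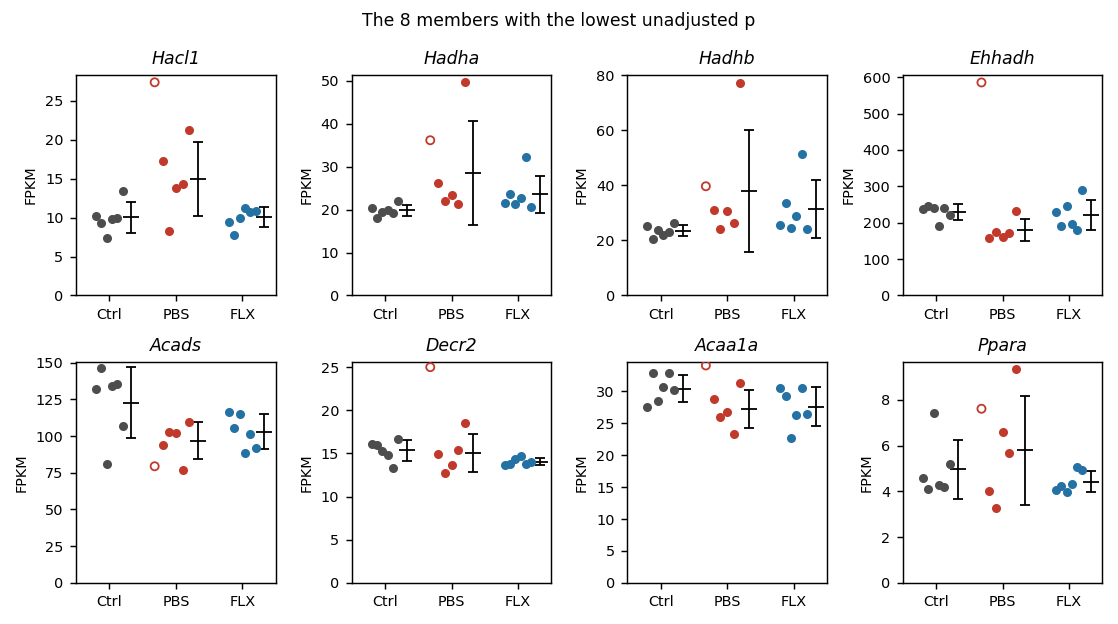
FPKM (y axis, from 0) in each mouse (points) of the 3 groups for the 8 members with the lowest unadjusted p in any comparison; black marks are the mean and SD over 6 Ctrl, 5 PBS and 6 FLX mice, and the open circle is PBS replicate 6, left out of them. The highest filled PBS point in each panel is replicate 5, most clearly for Hadha and Hadhb, and the open circle of Ehhadh is far above all filled points.

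Fluoxetine during stress was compared with saline next, the question being whether treated mice differed from stressed mice in this pathway. In FLX versus PBS, 0 of 36 members were called by edgeR, where 0.726% of all genes were. DESeq2 called 1, Hacl1, and over all 20223 genes it tested it called 239 higher and 237 lower. By edgeR 3 of 36 members, or 8.33%, had an unadjusted p under 0.05, against 11.1% of all genes (5.76% higher and 5.38% lower). All 3 were lower in FLX: Hacl1, Ppara and Decr2. The study's rule again found 0 of 36 members, against 1.9% of all genes, and 0 of 36 members had groups without overlap, against 2.92%. Hacl1 had a log2 fold change of -0.67 ± 0.18 (SE, adjusted p = 0.0922), which was -0.82 (adjusted p = 0.0136) without PBS replicate 2 and was called by DESeq2 (adjusted p = 0.0146). Over all 6 PBS mice it was -0.84 (adjusted p = 0.0595). Without PBS replicate 5 the value for Hacl1 was -0.53 (adjusted p = 0.172), and with the brown fat covariate -0.58 (adjusted p = 0.131). Ppara had -0.47 ± 0.20 (SE, adjusted p = 0.347) and, without PBS replicate 5, -0.25 (adjusted p = 0.599). Decr2, the peroxisomal dienoyl-CoA reductase, was at 15, 12.7, 13.6, 15.4 and 18.6 FPKM in PBS replicates 1 to 5, 13.6, 13.9 and 14.7 FPKM (lowest, median and highest) in FLX and 13.3, 15.6 and 16.6 FPKM in Ctrl. The FLX mice lay in a narrow band inside the PBS range. Its means were 15.4 ± 1.19 FPKM (SD, n = 6), 15.1 ± 2.24 FPKM (SD, n = 5) and 14 ± 0.428 FPKM (SD, n = 6), and its log2 fold change was -0.19 ± 0.08 (SE, adjusted p = 0.389).

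The other 6 members with an unadjusted p under 0.05 in PBS versus Ctrl were read in FLX versus PBS as well. Hadha and Hadhb had log2 fold changes of -0.35 ± 0.17 (SE, adjusted p = 0.460) and -0.35 ± 0.25 (SE, adjusted p = 0.670) in FLX versus PBS, which without PBS replicate 5 were -0.08 and 0.05. Ehhadh had 0.22 ± 0.13 (SE, adjusted p = 0.579), Cd36 0.31 ± 0.16 (SE, adjusted p = 0.513), Acadm 0.12 ± 0.10 (SE, adjusted p = 0.724) and Acads 0.01 ± 0.15 (SE, adjusted p = 0.995). With all 6 PBS mice Ehhadh had -0.22 (adjusted p = 0.803), so that its sign turned. Outside these 7, Ppargc1a had -0.09 ± 0.13 (SE, adjusted p = 0.880). Signs also turned with all 6 PBS mice for Acot1 (0.13, then -0.31), Eci2 (0.00, then -0.17) and Cpt1a (0.03, then -0.13). The same held for Pex11a (0.02, then -0.10), Etfdh (0.02, then -0.08) and Slc27a2 (-0.01, then 0.10). FLX versus PBS and PBS versus Ctrl share the PBS mice, so that their values are not independent. The median over the 36 genes was -0.08, against -0.00 over all genes, and with limma on log2(FPKM + 0.1) it was 0.04, against 0.08, a change of measure, scaling and test together. Under upper-quartile scaling the members' median was -0.06, and without PBS replicate 5 it was 0.06, so that its sign depended on that mouse. Of the 36 genes 34 had an interval inside -1 to 1, against 68.0% of all genes, and Hacl1 and Angptl4 did not.

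In FLX versus Ctrl, treated and stressed mice against mice that were neither, 0 of 36 members were called by edgeR or by DESeq2, against 3.67% of all genes in edgeR. At an unadjusted p under 0.05 there were 5 of 36 members, or 13.9%, all of them lower in FLX (Decr2, Acaa1a, Acads, Acaa1b and Vnn1), against 20.4% of all genes (10.2% higher and 10.2% lower). By the study's rule there were 0 of 36, against 2.24% of all genes, and 0 of 36 lacked overlap, against 3.4%. Decr2 had a log2 fold change of -0.22 ± 0.08 (SE, adjusted p = 0.143), the lowest adjusted p of the members here. Acaa1a was at 27.6, 30.5 and 32.9 FPKM (lowest, median and highest) in Ctrl, 22.6, 27.9 and 30.6 FPKM in FLX and 28.8, 26.1, 26.7, 23.4 and 31.4 FPKM in the PBS mice, with overlap throughout. It had 30.5 ± 2.16 FPKM (SD, n = 6), 27.3 ± 3.02 FPKM (SD, n = 5) and 27.6 ± 3.09 FPKM (SD, n = 6) in Ctrl, PBS and FLX, and a log2 fold change of -0.23 ± 0.09 (SE, adjusted p = 0.154). Acads had 103 ± 11.7 FPKM (SD, n = 6) in FLX and -0.34 ± 0.14 (SE, adjusted p = 0.173), and Vnn1 30.0 ± 5.69 FPKM (SD, n = 6) and -0.36 ± 0.16 (SE, adjusted p = 0.219). Ctrl replicate 3, the lowest Ctrl mouse for Acads and for Etfb (243 FPKM against a Ctrl median of 404), again decided calls. Without it Etfb had -0.37 (adjusted p = 0.00930, against 0.284 with it) and Acads -0.44 (adjusted p = 0.0119). Over all genes 1557 were then higher and 1542 lower, against 422 and 322 with that mouse. Of the 36 genes, 35 had an interval inside -1 to 1, all but Angptl4, against 67.6% of all genes, and the median was -0.10, against -0.01 over all genes (with limma on log2(FPKM + 0.1), -0.01 and 0.06).

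Single mice stood further apart in these genes than the group means did. Over the members the SD of log2(FPKM + 0.1) within a group had a median of 0.15 in Ctrl, 0.20 in FLX and 0.32 in the 5 PBS mice, against 0.27, 0.24 and 0.25 over all genes. With PBS replicate 6 the median of the members was 0.42. Each mouse was also described by the median difference of its 36 values from the Ctrl mean. That median was between -0.21 and 0.09 in 16 mice, 0.37 in PBS replicate 5 and 0.64 in PBS replicate 6. PBS replicate 6 was the highest of all 18 mice for 16 members (44.4%, against 15.3% of all genes tested), and PBS replicate 5 for 12 (33.3%, against 5.90%). The remaining 8 members had their maximum in one of the other 16 mice.

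**Figure D3:**
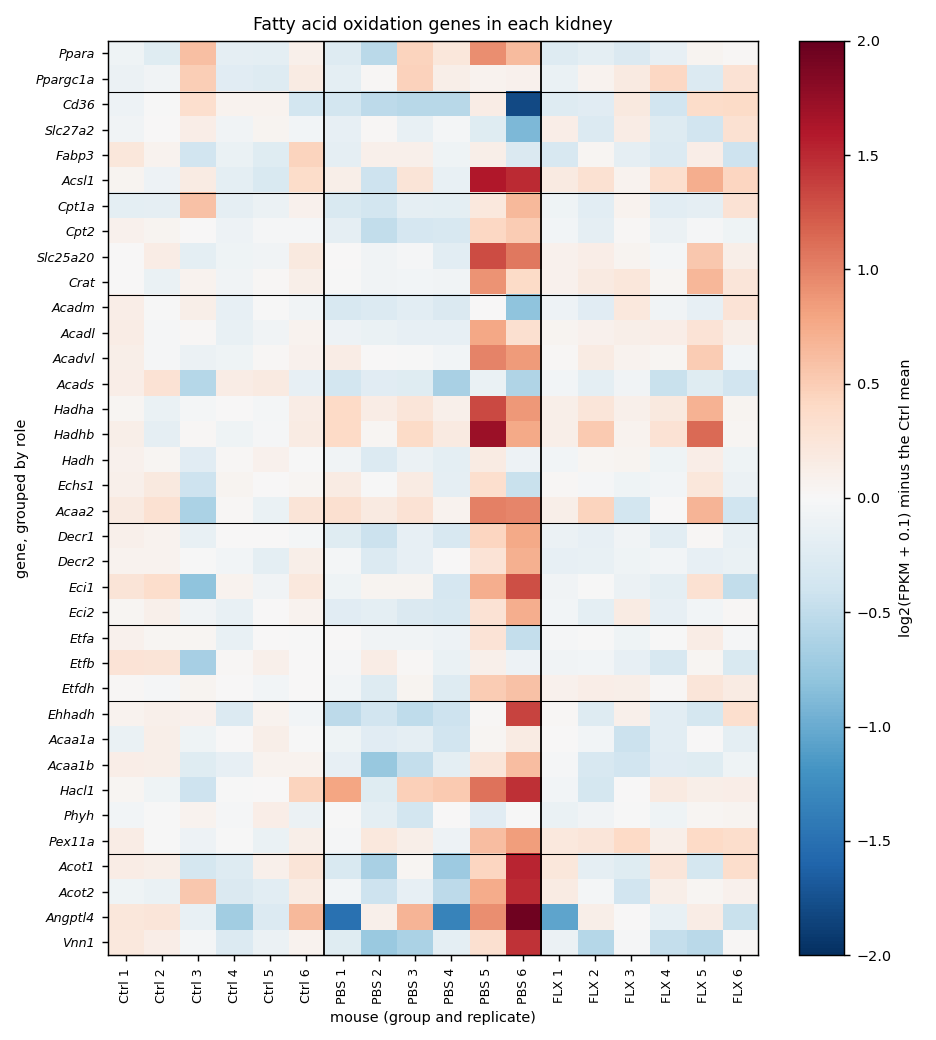
Difference of log2(FPKM + 0.1) from the Ctrl mean (colour) for the 36 genes (rows, in blocks by role) in all 18 mice (columns). PBS 5 and PBS 6 carry most of the red cells, PBS 6 has the darkest blue cell, for Cd36, and Ctrl 3 differs from the other Ctrl mice in several rows.

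PBS replicate 5 was high in the mitochondrial cycle and its supply. The 12 members in which it was the highest of 18 mice were 7 of the 9 mitochondrial cycle genes (Acadl, Acadvl, Hadha, Hadhb, Hadh, Echs1 and Acaa2), with Acsl1, Slc25a20, Crat, Etfa and Ppara. Hadhb at 77.3 FPKM was 3.28 times the Ctrl mean, Acsl1 at 46.5 FPKM was 3.00 times and Hadha at 49.8 FPKM was 2.51 times. In the other 4 PBS mice the median difference of the members was between -0.21 and -0.06. FLX replicate 5, second for brown fat markers, was the highest FLX mouse for Hadhb (51.5 FPKM), Acsl1 (25.5 FPKM) and Slc25a20 (16 FPKM). The brown fat markers Cidea and Cox8b were at 190.4 and 242 FPKM in PBS replicate 5, at 132 and 122 in FLX replicate 5 and at no more than 25.8 and 23.7 in the Ctrl mice. The part of brown fat in these members was not tested beyond the values with the markers as a covariate and without the mouse.

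PBS replicate 6, the mouse left out, was high in several mitochondrial genes as well, and in genes of the peroxisome, of unsaturated chains and among the classic PPAR-alpha targets. It was the highest of 18 mice for all 4 isomerases and reductases, for 5 of the 6 peroxisomal genes (Ehhadh, Acaa1a, Acaa1b, Hacl1 and Pex11a), for Acot1, Acot2, Angptl4 and Vnn1, and for Cpt1a, Cpt2 and Etfdh. It was second to replicate 5 for Acaa2, Acadl, Acadvl, Hadha, Acsl1, Slc25a20 and Ppara, with 304 FPKM of Acaa2, 36.1 of Hadha and 43.2 of Acsl1. In the carnitine shuttle the median difference from the Ctrl mean was 0.58 in replicate 6 and 0.65 in replicate 5. Ehhadh reached 586 FPKM, against 159 to 289 in the other 17 mice. Angptl4 reached 55.6 FPKM, against 5.05 to 27.5. Acot1 was at 55.1 FPKM against 11.5 to 25.8, and Vnn1 at 98.9 against 21.6 to 45.3. PPAR-alpha targets outside the 36 were also at their highest there. Cyp4a14 and Cyp4a10, fatty acid omega-hydroxylases, were at 1357 and 841 FPKM, against 18 to 193 and 113 to 224 in the other 17 mice. Pdk4, the kinase that shuts pyruvate out of oxidation, was at 94.0 FPKM against 4.94 to 72.7.

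The same kidney was the lowest of 18 for 5 members, or 13.9%, the same share as over all genes tested (13.9%). Cd36 was at 23.5 FPKM, against 55.8 to 107 in the other 17 mice, Slc27a2 at 396 against 567 to 906 and Acadm at 113 against 158 to 239. Echs1 and Etfa were also at their minimum, with 22.4 and 119 FPKM. Acsm3, a medium-chain acyl-CoA synthetase outside the 36, was at 3.28 FPKM, against 21.6 to 180.4. Its brown fat markers were low, with 0.251 FPKM of Ucp1 and a sum of 24.6 FPKM. The 12 proximal tubule markers summed to 1465 FPKM, below the lowest of the other mice, 2359.8. The 3 markers of injured tubules summed to 63.5 FPKM, against at most 11.3 in the others, and the 8 neutrophil markers to 66.1, against at most 25.8. The part of these cell markers in its values was not tested. As 1 mouse has no replicate, no test is given for it, and over all 6 PBS mice only Hacl1 was called in PBS versus Ctrl (1 of 36 members, against 4.28% of all genes), with 0 of 36 in FLX versus PBS (against 0.557%) and 0 of 36 in FLX versus Ctrl (against 1.77%).

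**Figure D4:**
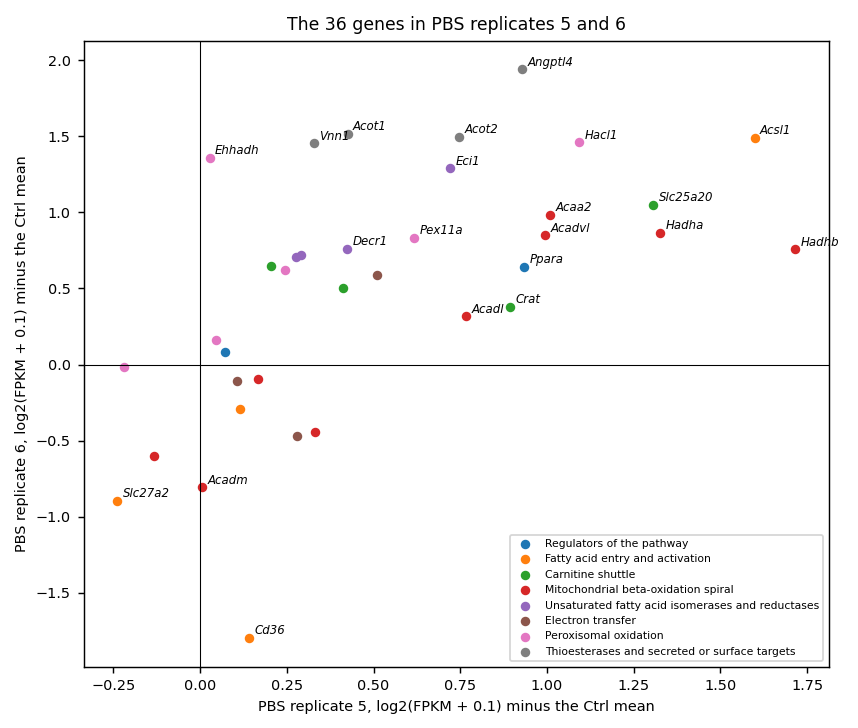
Each of the 36 genes placed by its difference from the Ctrl mean in log2(FPKM + 0.1) in PBS replicate 5 (x axis) and PBS replicate 6 (y axis), coloured by role. Hadhb lies furthest right and Acsl1 next to it, Angptl4 is at the top, Ehhadh is high but near 0 on the x axis, and Cd36 is at the bottom.

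Around the 36 genes, 108 further genes of the same metabolism were listed in 7 groups, of which 106 were tested. In PBS versus Ctrl 5 of them were higher and 6 lower at an adjusted p under 0.05, against 2.14% and 1.67% of all genes. Without PBS replicate 5 these counts were 2 and 4, and with all 6 PBS mice 5 and 6. Over all genes they were 405 and 283 without PBS replicate 5 and 489 and 364 with all 6 PBS mice. The peroxisomal genes outside the 36 had 0 higher and 2 lower of 18, with a median log2 fold change of -0.10. They were Amacr, which flips branched-chain acyl-CoAs into the form that can be oxidised, with 138 ± 25.4 FPKM (SD, n = 6) in Ctrl and 76.7 ± 24.6 FPKM (SD, n = 5) in PBS (log2 fold change -0.85 ± 0.19 SE, adjusted p = 0.0156), and Crot, which moves shortened chains out of peroxisomes, with -0.50 ± 0.13 (SE, adjusted p = 0.0417). Of 6 ketone body genes 0 were higher and 2 lower, with a median of -0.39. Acat1, the mitochondrial acetoacetyl-CoA thiolase, had 254 ± 27.4 FPKM (SD, n = 6) in Ctrl and 179 ± 11.4 FPKM (SD, n = 5) in PBS, with all 5 PBS mice below every Ctrl mouse and a log2 fold change of -0.51 ± 0.10 (SE, adjusted p = 0.00858). Bdh1, which interconverts both ketone bodies, had -0.58 ± 0.14 (SE, adjusted p = 0.0288).

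Acsm3, which activates medium-chain fatty acids, gave the firmest difference. Acsm3 was at 21.6, 51.5, 33.5, 40.4 and 32.5 FPKM in PBS replicates 1 to 5, 129, 144 and 177 FPKM (lowest, median and highest) in Ctrl and 79.8, 89.0 and 180.4 FPKM in FLX, and all PBS mice lay below every Ctrl and FLX mouse. It fell from 147 ± 17 FPKM (SD, n = 6) in Ctrl to 35.9 ± 11 FPKM (SD, n = 5) in PBS, a log2 fold change of -2.02 ± 0.24 (SE, adjusted p = 0.000155). In FLX it was at 114 ± 44.1 FPKM (SD, n = 6), with 1.58 ± 0.24 (SE, adjusted p = 0.00395) in FLX versus PBS and -0.44 ± 0.22 (SE, adjusted p = 0.255) in FLX versus Ctrl. Of the 25 listed genes of other mitochondrial oxidation, 2 were higher and 2 lower in PBS versus Ctrl, with a median log2 fold change of -0.02. Besides Acsm3 these were Acsm2 (log2 fold change -0.38 ± 0.10 SE, adjusted p = 0.0384), the synthetase Acsf2 (log2 fold change 1.16 ± 0.29 SE, adjusted p = 0.0312) and Acsl4, which favours polyunsaturated chains (log2 fold change 0.44 ± 0.10 SE, adjusted p = 0.0227). Over FLX replicates 1 and 2 alone, the FLX mice of full depth, the log2 fold change of Acsm3 in FLX versus PBS was 1.25 (adjusted p = 0.137), with no gene called in that comparison. Acsm3 was the only one of the 106 genes called in FLX versus PBS, where 0.306% of all genes were higher and 0.42% lower.

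Of the 24 other PPAR-alpha targets 23 were tested, 2 were higher and 0 lower in PBS versus Ctrl, and their median log2 fold change was 0.40, against -0.01 over all genes. Without PBS replicate 5 the median was 0.15, with 1 higher. Of these targets Cpt1b is also one of the brown fat markers, and so part of the covariate, and Cidec is one of the white fat markers. Those marker lists had medians of 3.08 and 1.91 in PBS versus Ctrl, and the part of fat in the targets' median was not tested. Lpin1, a phosphatidate phosphatase and coactivator of PPAR-alpha, rose from 4.50 ± 0.633 FPKM (SD, n = 6) to 9.98 ± 2.29 FPKM (SD, n = 5), and all 5 PBS mice were above every Ctrl mouse (log2 fold change 1.16 ± 0.17 SE, adjusted p = 0.000730). It had 6.43 ± 1.62 FPKM (SD, n = 6) in FLX and -0.73 ± 0.17 (SE, adjusted p = 0.0529) in FLX versus PBS. Cyp4a14 was at 177, 96.0, 127, 135 and 193 FPKM in PBS replicates 1 to 5 and 18, 37.1 and 101 FPKM (lowest, median and highest) in Ctrl, so that 1 PBS mouse fell inside the Ctrl range, and the log2 fold change was 1.51 ± 0.38 (SE, adjusted p = 0.0328). Its relative Cyp4a10 had 0.20 ± 0.18 (SE, adjusted p = 0.600) and Pdk4 1.04 ± 0.52 (SE, adjusted p = 0.305), with 72.7 FPKM in PBS replicate 5 alone against at most 19.8 in the other 4. Fasn, the fatty acid synthase, was the 1 gene higher of 10 of lipid synthesis, at 77.0, 5.66, 16.8, 16.6 and 191 FPKM in the PBS mice and 3.81 to 9.47 FPKM in Ctrl (log2 fold change 3.28 ± 0.90 SE, adjusted p = 0.0483). In the FLX group Fasn ran from 6.19 to 165 FPKM, highest in FLX replicate 5. The median over the lipid synthesis genes was 0.87, and without PBS replicate 5 it was 0.76. In FLX versus Ctrl that median was 0.77. The 10 genes of carnitine supply and malonyl-CoA control that were tested had 0 calls in any comparison over the 17 mice. With all 6 PBS mice 1 of them was lower in FLX versus PBS, against 0.557% of all genes called in either direction. In FLX versus Ctrl 2 of the 106 genes were higher, against 2.08% of all genes, and 0 lower, against 1.59%. Leaving out PBS replicate 5, which enters through the shared spread, gave 2 higher and 2 lower, against 469 and 339 over all genes. Ppard, the delta relative of Ppara and the 1 call among 14 regulators, had 2.22 ± 0.784 FPKM (SD, n = 6) in Ctrl, 2.56 ± 0.838 FPKM (SD, n = 5) in PBS and 5.28 ± 1.68 FPKM (SD, n = 6) in FLX (log2 fold change 1.17 ± 0.24 SE, adjusted p = 0.0153), and Scd2, a fatty acid desaturase, had 0.76 ± 0.18 (SE, adjusted p = 0.0291). Depth was lower in FLX replicates 3 to 6, and over FLX replicates 1 and 2 alone neither was called (log2 fold changes 1.47 and 0.65, adjusted p = 0.0839 and 0.372). With these 2 FLX mice edgeR called 4.0 genes higher and 0.0 lower over all genes in FLX versus Ctrl.

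**Figure D5:**
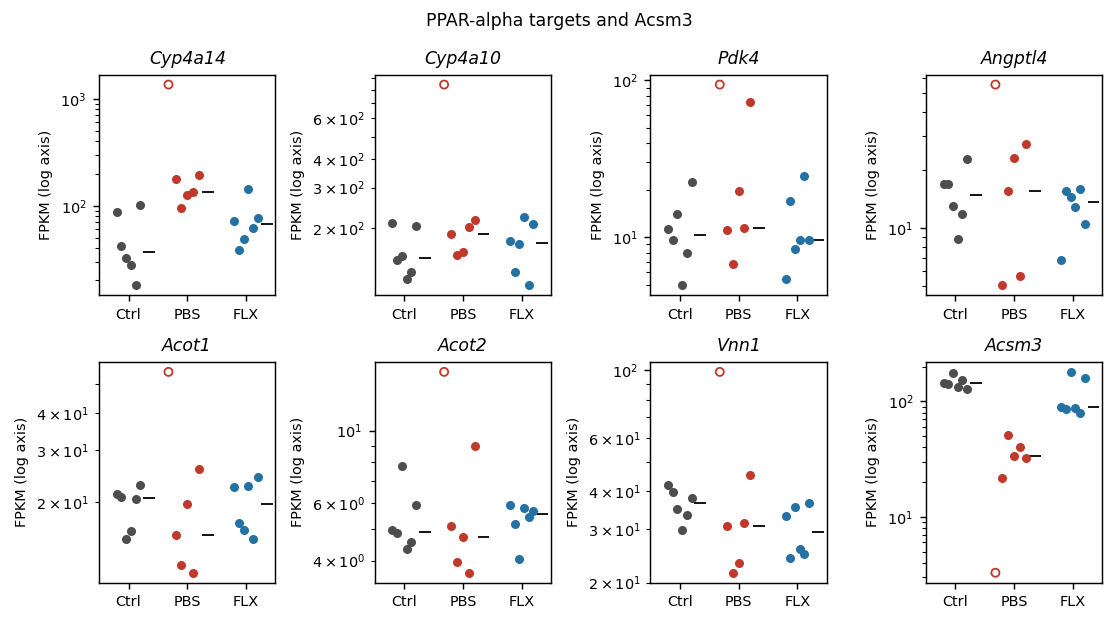
FPKM on a log axis (y) in each mouse (points) for 3 PPAR-alpha targets outside the 36 genes (Cyp4a14, Cyp4a10 and Pdk4), for 4 of the 36 (Angptl4, Acot1, Acot2 and Vnn1) and for Acsm3; the short black line is the median of 6 Ctrl, 5 PBS or 6 FLX mice, and the open circle is PBS replicate 6, left out. The open circle is above all points in 7 panels and below all points for Acsm3, where the filled PBS points lie below every Ctrl and FLX point.

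Several of these calls depended on single mice. The call of Crot was lost without Ctrl mouse 1, 2, 4, 5 or 6, FLX mouse 1, PBS mouse 1, 3, 4 or 5 (adjusted p from 0.0532 to 0.0987). That of Fasn did not hold without Ctrl mouse 1, 2, 3, 4, 5 or 6, FLX mouse 2, PBS mouse 1, 4 or 5 (adjusted p from 0.0514 to 0.153). A call of Acsm2 was not made without Ctrl mouse 1, 2, 4 or 5, FLX mouse 1 or 2, PBS mouse 1, 2, 3 or 5 (adjusted p from 0.0504 to 0.0898). That of Acsf2 was lost without Ctrl mouse 1, 2, 4 or 5, PBS mouse 1 or 5 (adjusted p from 0.0599 to 0.0896). The call of Cyp4a14 did not hold without Ctrl mouse 2, 4 or 5, PBS mouse 1, 4 or 5 (adjusted p from 0.0627 to 0.0874). That of Bdh1 disappeared without Ctrl mouse 1, 2, 5 or 6, PBS mouse 1 or 5 (adjusted p from 0.0522 to 0.0763). A call of Acsl4 was not made without Ctrl mouse 2 or 5, PBS mouse 1 or 4 (adjusted p from 0.0509 to 0.0750). The call of Amacr was lost without PBS mouse 1 or 4 (adjusted p from 0.0503 to 0.0516). In FLX versus Ctrl the call of Scd2 was lost without Ctrl mouse 2, 5 or 6, FLX mouse 4 or 5 (adjusted p from 0.050 to 0.0746). The calls of Acsm3, Lpin1 and Acat1 in PBS versus Ctrl, of Acsm3 in FLX versus PBS and of Ppard in FLX versus Ctrl were kept whichever of the 17 mice was left out. With the brown fat markers as a covariate 9 of the 11 calls in PBS versus Ctrl were lost, all but those of Acsm3 and Lpin1. Calls became fewer over all genes too, with 206 higher and 114 lower, against 433 and 339 without the covariate. Acat1 then had -0.39 (adjusted p = 0.0631), Amacr -0.55 (adjusted p = 0.0721), Crot -0.30 (adjusted p = 0.225), Bdh1 -0.34 (adjusted p = 0.0976) and Acsm2 -0.26 (adjusted p = 0.206). Acsl4 had 0.42 (adjusted p = 0.0891), Cyp4a14 1.18 (adjusted p = 0.121), Acsf2 0.55 (adjusted p = 0.224) and Fasn 0.75 (adjusted p = 0.505). In FLX versus Ctrl the covariate gave 1.09 (adjusted p = 0.0607) for Ppard and 0.66 (adjusted p = 0.0947) for Scd2, both lost. Over all genes 152 were then higher and 108 lower in FLX versus Ctrl, against 422 and 322 without the covariate. With all 6 PBS mice Bdh1, Acsm2 and Fasn were not called (adjusted p = 0.101, 0.0628 and 0.0712). Lpin1 in FLX versus PBS became a call with the covariate, at -0.70 (adjusted p = 0.0429). Without PBS replicate 5 the log2 fold change of Acsf2 was 0.76.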

How the data were processed

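Libraries were strand-marked by dUTP, carried molecular identifiers and were sequenced as paired ends. The authors' methods name fastp, HISAT-3N, StringTie and gffcompare, while the submitters' processing notes name cutadapt 1.9, HISAT2 2.0.4, UMI-tools, StringTie 1.3.4d, DESeq2 and edgeR, on GRCm38. The deposited table gave estimated counts per gene, already whole numbers, whose counting tool no source used here names, and FPKM that the authors made from the same reads. The members and lists were chosen with earlier results of these data known. Counts were tested with edgeR 4.0.16 (R 4.3.3): TMM scaling, filterByExpr, 1 quasi-likelihood model over 3 groups and 17 mice, and Benjamini-Hochberg adjustment over the 20251 genes tested, with a call at an adjusted p under 0.05. Levels are FPKM with SD, and p-values set the difference between groups against the spread between mice, estimated over the 3 groups. Spread between single mice used log2(FPKM + 0.1). Alternatives used DESeq2 1.42.0, limma 3.58.1, other scaling and filters, a replicate block, all 18 mice, a brown fat covariate and single mice left out. Genes named outside the 36 were those called in any comparison plus Pdk4 and Cyp4a10, and a few others are not reported here. Steps were tested on simulated data. Of 32675 identifiers, 32562 matched GENCODE M21, 28514 with the same coordinates. Of the 36 members 17 overlap another listed gene, 5 of them on the same strand, and reads of Acot1 and Acot2 or of Acaa1a and Acaa1b may be shared.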

Additional observations from a re-analysis of the deposited data

Results flagged for a closer look

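In 22 of 153 groups of 5 or 6 mice, 1 mouse stood apart from the others by Dixon's criterion at the 95% level. Chance alone meets this criterion in about 1 of 20 independent groups. Each of the 153 groups holds the values of 1 gene in the Ctrl, PBS or FLX mice, and the same mice recur for every gene. The 153 groups are therefore not independent, and the count of 22 cannot be judged against that rate. Of the 22, 21 concerned members, and 10 were PBS replicate 5. In that mouse Cd36 was at 90.4 FPKM, Slc25a20 at 27.2, Crat at 41.8, Acadl at 243 and Acadvl at 224. It also held 49.8 FPKM of Hadha, 77.3 of Hadhb, 309.6 of Acaa2, 25.4 of Eci2 and 233 of Ehhadh. FLX replicate 5 stood apart with 16 FPKM of Slc25a20, 35.5 of Crat, 172 of Acadl, 32.1 of Hadha and 184 of Etfa, and FLX replicate 3 with a low 4.05 FPKM of Acot2. Among undefeated mice, Ctrl replicate 3 had a high Cpt1a, at 59.7 FPKM, and low values of Hadh (74.0), Echs1 (23.0), Eci1 (26.8) and Etfb (243). Outside the members, Scd2 was at 28.5 FPKM in PBS replicate 1.

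The mouse left out, PBS replicate 6, held more than 2 times the highest value of the other 17 mice for 7 of the members and further metabolic genes named here, cell markers not counted: 586 FPKM of Ehhadh, 55.1 of Acot1, 55.6 of Angptl4, 98.9 of Vnn1, 16.9 of Acsl4, 841 of Cyp4a10 and 1357 of Cyp4a14. These are values of 1 mouse, with no test.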

How the results depend on the processing

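The number of members called stayed at 0 under 24 of 31 alternatives in PBS versus Ctrl, 29 of 31 in FLX versus PBS and 30 of 31 in FLX versus Ctrl. In PBS versus Ctrl it was 1 with all 6 PBS mice, 2 with DESeq2 and 2 without both mice highest in brown fat markers (PBS replicate 5 and FLX replicate 5, an alternative chosen after seeing the data), where Ehhadh and Cpt2 were called. In FLX versus PBS DESeq2 called 1. Leaving out 1 mouse in turn gave 0 to 1, 0 to 1 and 0 to 2 members in the 3 comparisons; the mice that decided were Ctrl 3, Ctrl 6, PBS 2 and PBS 5 in the first, PBS 2 in the second and Ctrl 3 in the third. Over all genes, PBS versus Ctrl had 454 higher and 298 lower without both mice highest in brown fat markers. Higher and lower counts there were 916 and 746 without Ctrl 3 and 327 and 299 without Ctrl 6. They were 425 and 269 without PBS 2 and 405 and 283 without PBS 5. Without PBS 2, FLX versus PBS had 47 higher and 87 lower over all genes. No member's call reversed. With the replicate number as a block 0 members were called in each comparison, and the numbers do not pair the mice: over 16 pairs of same-numbered mice the correlation of their deviations ran from -0.205 to 0.227, with 2 over 0.1. FLX replicates 3 to 6 were sequenced less deeply, which limits the precision of low genes there. Over all genes the block gave 241 higher and 178 lower in PBS versus Ctrl (433 and 339 without it), 21 and 46 in FLX versus PBS (62 and 85) and 153 and 105 in FLX versus Ctrl (422 and 322). In FLX versus Ctrl DESeq2 gave 838 and 647, limma on log2(FPKM + 0.1) 979 and 235, and leaving out Ctrl replicate 3 gave 1557 and 1542. Of the members' single tests under alternatives 3227 kept their side of the threshold and 13 became calls, and of those of the other named genes 1231 kept it, 17 became calls and 102 lost theirs.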
